A study of Mus musculus with 12 samples.

Results

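TAM receptors are the 3 related receptor tyrosine kinases encoded by Tyro3, Axl and Mertk. They were described here with Gas6 and Pros1, which encode their ligands, and with Timd4, Stab1 and Lrp1, which encode other receptors for the uptake of dying cells. The 8 genes were chosen by name, out of 53458 genes, with earlier results of these data known. The shares of all genes given below are thus not those of an unselected set of 8. Transcripts were summed to genes. All 8 passed the filter on low counts and are among the 18095 genes tested.

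The 12 RNA-seq libraries came from mouse type 1 conventional dendritic cells (cDC1) of inguinal lymph nodes, 3 libraries in each of 4 groups. The groups crossed a subcutaneous KPC tumor (present or absent) with a CD40 agonist (given or not): no tumor and no agonist, agonist without tumor, tumor without agonist, and tumor with agonist. Strain, sex, age, agonist dose, times and sort gates are not given in the sources used here, nor is whether the libraries of a group came from separate animals, so every p-value measures only the spread between these samples. The question the groups address is how the agonist and the tumor each change gene expression in cDC1.

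GAS6 and protein S, the product of Pros1, are vitamin K-dependent proteins that bind phosphatidylserine, a lipid exposed on the surface of dying cells, and bridge it to TAM receptors. TIM-4, STAB1 and LRP1 also take part in this uptake, which is called efferocytosis: TIM-4 and STAB1 bind phosphatidylserine themselves, and LRP1 recognises calreticulin and many other ligands. In dendritic cells the TAM receptors are also known as brakes on inflammatory signalling, with AXL inducible by interferon. cDC1 are known for taking up dying cells and presenting their antigens to CD8 T cells.

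Library depth was between 22855143 and 27163393 expected counts. In each group 11 of 12 cDC1 markers had a mean of at least 1 normalized CPM (expected counts scaled to library size, with TMM factors). Xcr1, a chemokine receptor that defines cDC1, was between 515 and 780 CPM in the group with neither tumor nor agonist. It was 249, 533 and 49.5 CPM with the agonist alone, 257, 686 and 73.1 CPM with the tumor alone and 249, 303 and 198 CPM with both. The libraries lowest in Xcr1, replicate 3 of the agonist group without tumor and replicate 3 of the tumor group without agonist, were left out together as a check added after the data were seen.

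The start regions of Axl and Mertk are shown because these are the TAM genes with a call in any comparison below. They are RefSeq promoters of GRCm38.p6, from 250 bases before to 50 bases after the annotated start, in the direction of the gene: chr7:25788684-25788983 on the minus strand for Axl and chr2:128698665-128698964 on the plus strand for Mertk. Capitals mark the GC box, searched as GGGCGG on both strands, so that it reads as its reverse complement where it lies on the other strand.

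Axl: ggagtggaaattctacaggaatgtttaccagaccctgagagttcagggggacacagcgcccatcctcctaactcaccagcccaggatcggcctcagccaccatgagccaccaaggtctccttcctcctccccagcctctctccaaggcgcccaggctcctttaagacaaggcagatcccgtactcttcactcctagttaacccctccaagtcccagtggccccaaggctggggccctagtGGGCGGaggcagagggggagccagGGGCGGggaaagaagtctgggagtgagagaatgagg

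Mertk: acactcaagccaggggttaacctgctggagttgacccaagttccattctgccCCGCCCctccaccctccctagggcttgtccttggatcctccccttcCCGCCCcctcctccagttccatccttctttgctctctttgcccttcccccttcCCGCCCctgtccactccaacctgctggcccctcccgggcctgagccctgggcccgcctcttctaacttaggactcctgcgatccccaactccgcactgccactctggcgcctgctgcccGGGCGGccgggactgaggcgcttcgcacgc

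The Axl window held 2 GC boxes and 6 CpG dinucleotides, and the Mertk window held 4 GC boxes and 14 CpG dinucleotides. The median over all promoters was 7 CpG dinucleotides, so Axl lay below it and Mertk above it. GC content was 60.3% for Axl and 66% for Mertk, against a median of 52.7% over 32851 promoters of the same length. A GC box was found in 35.7% of those promoters. Neither window held GAAANNGAAA (interferon-stimulated response element, in 3.44% of all promoters), TTCNNNGAA (gamma-activated site, in 8.30%) or TGANTCA (AP-1 site, in 7.81%), each searched on both strands. Of the 8 promoters, those of Pros1 and Lrp1 held a gamma-activated site match and none held an interferon-stimulated response element match. These are matches of letters and say nothing of binding.

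Axl was the member with the highest count level. It rose with the agonist in both tumor states, while Mertk passed only when the tumor states were averaged. The gene (ENSMUSG00000002602) lies on the minus strand of chr7:25757273-25788705 in GRCm38. Without tumor and agonist its level was 6.05, 6.79 and 6.72 CPM, and with the agonist alone 29.9, 22.1 and 25.5 CPM. With the tumor alone it was 11.2, 8.88 and 10.5 CPM, and with tumor and agonist 18.7, 24.2 and 19.6 CPM. Every library with the agonist was above every library without it, and within each group the libraries lay close together. Groups that do not overlap, in either direction, were found for 23.2% of all genes in the agonist comparison without tumor and for 11.9% with tumor. In bulk libraries a different share of cells of one type and a different amount of RNA per cell cannot be told apart.

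Without tumor, Axl went from 6.52 ± 0.412 CPM (SD, n = 3) to 25.8 ± 3.93 CPM (SD, n = 3) with the agonist. In the quasi-likelihood test of edgeR, adjusted over all tested genes after Benjamini and Hochberg, its log2 fold change was 1.99 ± 0.22 (SE), with an adjusted p of 0.00164, under the threshold of 0.05. Axl was the 1 member of 8 that passed in this comparison, in which 1.44% of all tested genes did. The call was kept with each of the 6 libraries left out in turn, with log2 fold changes between 1.89 and 2.09, and without both libraries lowest in Xcr1. It was lost when TPM values (scaled for transcript length and to 1 total) of all Axl transcripts were tested, for which the transcript values are given below.

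With tumor, Axl went from 10.2 ± 1.19 CPM to 20.8 ± 2.94 CPM (SD, n = 3 each) with the agonist. The log2 fold change was 1.03 ± 0.21 (SE), with an adjusted p of 0.0444 in edgeR's test. Again Axl was the 1 member that passed, where 0.685% of all genes did. This call rested on the setting: with any 1 of the 6 libraries left out the adjusted p of the same edgeR test lay between 0.0755 and 0.159, with log2 fold changes between 0.91 and 1.10. It passed in 2 of 12 other alternatives. The direction was higher in each alternative.

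Axl was also higher with the tumor than without it where no agonist was given, and the 3 libraries of each group did not overlap, as for 8.98% of all genes. This was a difference of 0.65 ± 0.24 (SE) on the log2 scale with an adjusted p of 0.775 in edgeR's test, where 0% of all genes passed and 5.82% had an unadjusted p under 0.05. With the agonist given, the tumor groups overlapped, at a log2 difference of -0.31 ± 0.20 (SE). The fitted agonist difference of Axl was smaller with tumor than without by 0.95 ± 0.31 (SE) on the log2 scale. That interaction had an unadjusted p of 0.0082 and an adjusted p of 0.495 in edgeR's test, where 0% of all genes passed and 9.8% had an unadjusted p under 0.05, so a difference between the agonist's effects was not shown.

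**Figure D1:**
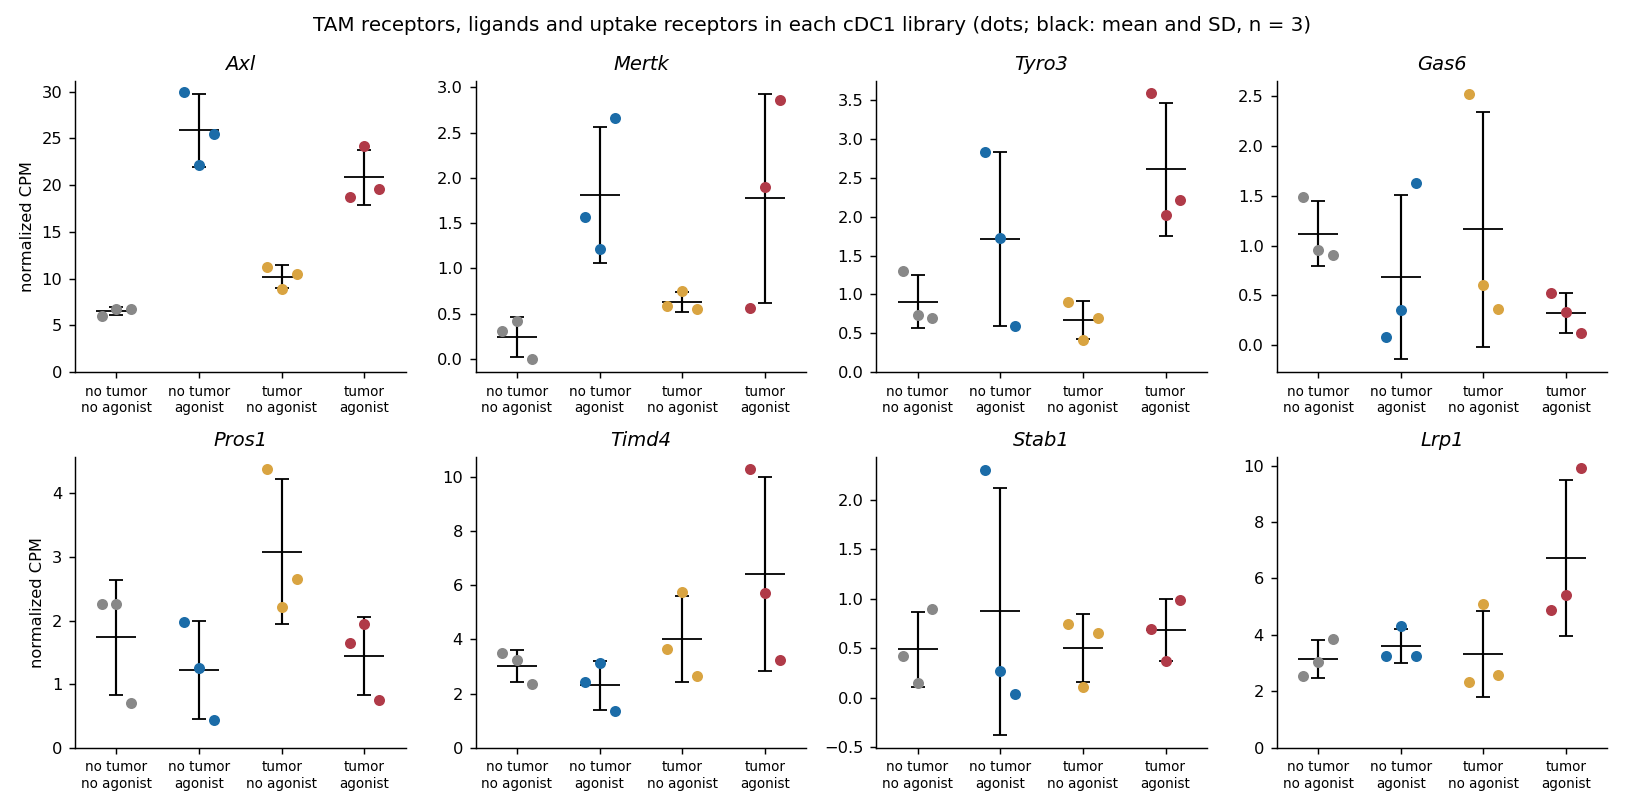
Normalized CPM of the 8 genes (vertical axes, linear) in the 3 libraries of each group (dots), with the mean and SD in black. Axl lies between 18.7 and 29.9 CPM in the agonist libraries and between 6.05 and 11.2 CPM in the others, while the other genes stay under 11 CPM with wide spread.

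The titles of the libraries begin with a prefix, of unstated meaning, that most libraries share with libraries of other groups. Within a prefix, the ratio of Axl with agonist to Axl without was 4.95 and 3.26 for the pairs without tumor and 1.67, 2.72 and 1.86 for the pairs with tumor. The agonist library was the higher one in all 5 pairs. Replicate 3 of the group with neither tumor nor agonist has a prefix of its own and enters no pair.

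The annotation divides Axl into several transcripts, and counts and TPM weigh them differently. Axl-201, the protein-coding transcript of 4265 bases, held 84.2% of the gene's expected counts but 29.9% of its summed TPM. Axl-203, a retained-intron transcript of 602 bases, held 9.94% of the counts and 47.7% of the TPM. Axl-207, a retained-intron transcript of 455 bases, held 2.12% of the counts and 14.1% of the TPM.

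Axl-201 was at 0.589, 0.540 and 0.626 TPM with neither treatment, and at 3.36, 2.02 and 2.83 TPM with the agonist alone. With the tumor alone it was at 0.991, 0.989 and 1.09 TPM, and with both at 1.63, 2.50 and 2.31 TPM. These groups were ordered as in the counts, and the agonist libraries did not overlap the others. Axl-203 was at 0 TPM in 1 of the 3 libraries of each of 3 groups and reached 6.58 TPM in the other libraries. Axl-203 was at 0, 2.30 and 6.57 TPM with the agonist alone, where the summed Axl value was 3.36, 6.47 and 14.3 TPM, and at 6.58, 6.11 and 0 TPM with tumor and agonist.

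**Figure D2:**
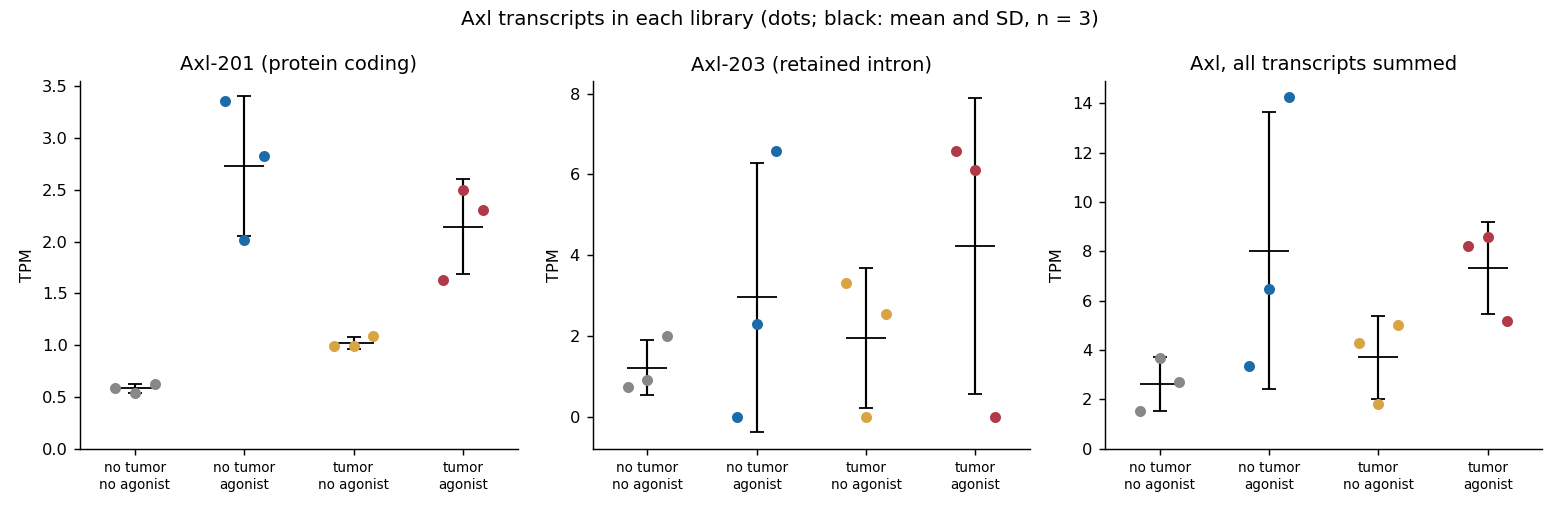
TPM (vertical axes, linear) of the protein-coding Axl-201, of the short retained-intron Axl-203 and of all Axl transcripts summed, by library (dots) with mean and SD in black. Axl-201 separates the agonist libraries, from 1.63 TPM up, from the others, at most 1.09 TPM, whereas Axl-203 ranges from 0 to 6.57 TPM within the agonist group without tumor and from 0 to 6.58 TPM within the group with tumor and agonist.

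Mertk, the TAM receptor best known from macrophages (ENSMUSG00000014361, plus strand of chr2:128698956-128802894), was low in every library. It had 8, 11 and 0 counts with neither treatment, 38, 31 and 67 with the agonist alone, 14, 20 and 15 with the tumor alone and 13, 46 and 72 with both. In the library with 0 counts, 3 counts would be 0.123 CPM, which bounds its level for counting error. Without tumor all agonist libraries were above all controls, in a comparison where groups did not overlap for 23.2% of all genes. With tumor, replicate 1 of the agonist group lay at the level of its controls.

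The group means of Mertk were 0.243 ± 0.218 CPM and, with the agonist, 1.81 ± 0.751 CPM without tumor (SD, n = 3 each). They were 0.625 ± 0.112 CPM and, with the agonist, 1.77 ± 1.15 CPM with tumor (SD, n = 3 each). The log2 fold change was 2.85 ± 0.87 (SE) without tumor, with an adjusted p of 0.111, and 1.52 ± 0.71 (SE) with tumor, with an adjusted p of 0.490, in edgeR's quasi-likelihood test. Neither passed. With tumor the value was 0.99 without replicate 3 of the agonist group.

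The counts of Mertk were split over a pair of transcripts. Mertk-201, which is protein coding, held 66.5% of the counts and 55.4% of the summed TPM, and Mertk-202, a processed transcript with no coding sequence annotated, held 33.5% and 44.6%. With the agonist alone, Mertk-201 had 4.36, 31 and 67 counts and Mertk-202 33.6, 0 and 0. With both, Mertk-201 had 0, 17.0 and 50.8 counts and Mertk-202 13, 29.0 and 21.2. In replicate 1 of either agonist group most or all Mertk counts were thus on the noncoding Mertk-202.

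Averaged over both tumor states, the agonist difference of Mertk was 2.18 ± 0.56 (SE) on the log2 scale with an adjusted p of 0.0472 in edgeR's test. Axl and Mertk were the 2 members of 8 that passed in this averaged comparison, in which 2.52% of all genes did. For Mertk the call was lost in 10 of 12 fits that left out 1 library, with adjusted p-values of the edgeR test between 0.0313 and 0.156. For Axl the averaged difference was 1.51 ± 0.15 (SE) with an adjusted p of 0.000228 in edgeR's test, and it was kept in all 12 of these fits.

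Tyro3, the remaining TAM receptor (ENSMUSG00000027298, plus strand of chr2:119797733-119818104), was at 1.30, 0.729 and 0.697 CPM with neither treatment and at 2.84, 1.73 and 0.595 CPM with the agonist alone. It was at 0.909, 0.414 and 0.690 CPM with the tumor alone and at 3.59, 2.02 and 2.22 CPM with both. The agonist libraries lay above their controls with tumor, without overlap, and overlapped them without tumor. With tumor, groups did not overlap, in either direction, for 11.9% of all genes. The log2 fold change with tumor was 1.96 ± 0.64 (SE), with an adjusted p of 0.264 in edgeR's test.

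Tyro3 reads were also spread over its transcripts. Tyro3-201, which is protein coding, held 58.8% of the counts and 17.6% of the summed TPM. Tyro3-208, a processed transcript, held 43.9% of the TPM on 7.86% of the counts, and Tyro3-205, with a retained intron, 18.2% on 3.57%. In replicate 2 of the group with tumor and agonist no count was assigned to Tyro3-201.

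The 2 ligand genes gave lower values with the agonist, and neither passed the test. Gas6 (ENSMUSG00000031451, minus strand of chr8:13465374-13494490) was at 1.49, 0.959 and 0.902 CPM with neither treatment and at 0.0822, 0.353 and 1.63 CPM with the agonist alone. It was at 2.52, 0.602 and 0.363 CPM with the tumor alone and at 0.519, 0.330 and 0.119 CPM with both. The groups overlapped in both tumor states. The log2 fold changes of Gas6 with the agonist were -0.69 ± 0.85 (SE) without tumor and -1.80 ± 1.02 (SE) with tumor, with adjusted p-values of 0.701 and 0.596 in edgeR's test. Single libraries moved both values: they ranged from -2.32 to -0.16 without tumor and from -2.31 to -0.59 with tumor when 1 library was left out. Replicate 3 of the agonist group without tumor, the highest of that group, gave -2.32 when left out, and replicate 1 of that group gave -0.16. With tumor, leaving out replicate 1 of the group without agonist gave -0.59. Gas6-201, which is protein coding, held 100% of the Gas6 counts.

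Pros1 (ENSMUSG00000022912, plus strand of chr16:62854307-62929346) was at 2.26, 2.26 and 0.697 CPM with neither treatment and at 1.97, 1.26 and 0.436 CPM with the agonist alone. It was at 4.38, 2.22 and 2.65 CPM with the tumor alone and at 1.64, 1.94 and 0.753 CPM with both. With tumor all agonist libraries were below their controls, and without tumor the groups overlapped. Groups did not overlap for 11.9% of all genes in the comparison with tumor. The log2 fold change with tumor was -1.09 ± 0.59 (SE), with an adjusted p of 0.579 in edgeR's test. Pros1-201, which is protein coding, held 79.9% of the counts and 43.4% of the summed TPM, and the processed transcript Pros1-202 held 20.1% and 56.6%. In replicate 1 of the agonist group without tumor, Pros1-202 held 43.2 of 48 counts.

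Timd4, which encodes the phosphatidylserine receptor TIM-4 of resident macrophages and some dendritic cells (ENSMUSG00000055546, plus strand of chr11:46810800-46844332), was at 3.48, 3.22 and 2.34 CPM with neither treatment and at 2.43, 3.14 and 1.35 CPM with the agonist alone. It was at 3.64, 5.76 and 2.65 CPM with the tumor alone and at 10.3, 5.70 and 3.25 CPM with both. Among agonist libraries, those with tumor were all above those without, at a log2 difference of 1.46 ± 0.50 (SE), which was 0.95 without replicate 1 of the group with both. Its adjusted p was 0.395 in edgeR's test, and 12.9% of all genes had non-overlapping groups in that comparison. Timd4-201, which is protein coding, held 100% of the Timd4 counts.

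Lrp1, an endocytic receptor of very large size (ENSMUSG00000040249, minus strand of chr10:127538161-127621148), was at 2.53, 3.03 and 3.85 CPM with neither treatment and at 3.25, 4.32 and 3.25 CPM with the agonist alone. It was at 2.31, 5.08 and 2.58 CPM with the tumor alone and at 4.89, 5.41 and 9.91 CPM with both. The group with both held the highest library, and its lowest library was under the highest one of the tumor group without agonist. The log2 fold change of the agonist with tumor was 1.02 ± 0.41 (SE), with an adjusted p of 0.408, and that of the tumor among agonist libraries 0.91 ± 0.41 (SE), with an adjusted p of 0.526, in edgeR's test. Without replicate 3 of the group with both, these were 0.64 and 0.52. Lrp1-201, which is protein coding, held 87.2% of the counts and 19.0% of the summed TPM. The short transcripts Lrp1-208, with a retained intron, and Lrp1-205, annotated for nonsense-mediated decay, held 38.2% and 36.2% of the TPM on 7.70% and 4.37% of the counts.

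Stab1, a scavenger receptor of macrophages and sinusoidal endothelium (ENSMUSG00000042286, minus strand of chr14:31139013-31168641), had group means between 0.492 and 0.872 CPM. Its libraries ranged from 0.0396 to 2.30 CPM, both ends within the agonist group without tumor, and all 4 groups overlapped. The protein-coding transcript Stab1-201 held 16.1% of the counts and 1.82% of the summed TPM. Retained-intron transcripts held more of the TPM, 46.4% for Stab1-213, 17.0% for Stab1-205 and 10.7% for Stab1-204, and the protein-coding Stab1-203 held 17.4%. Stab1-205 also held 37.7% of the counts. No difference of Stab1 passed the test.

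**Figure D3:**
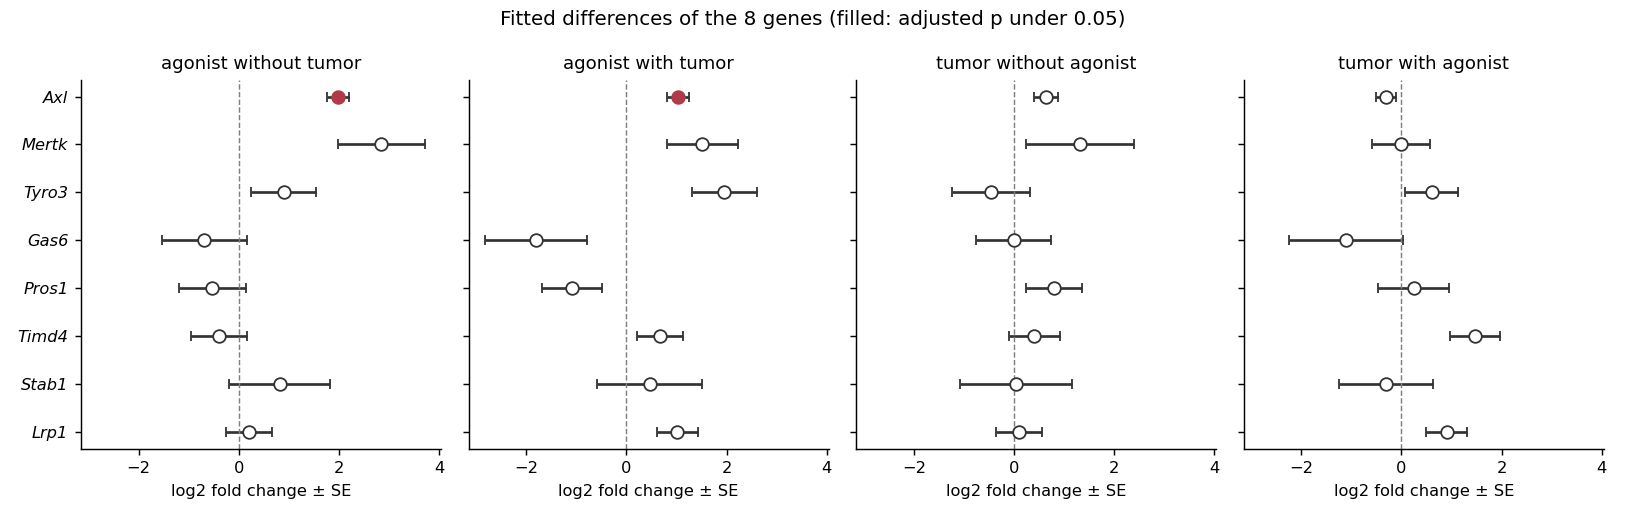
Log2 fold change ± SE (horizontal axes) of the 8 genes in the 4 pairwise comparisons, with filled circles for an adjusted p under 0.05 in edgeR's test. The filled circles are Axl with the agonist, at 1.99 without tumor and 1.03 with tumor, and the bars of Gas6 and Stab1 are among the widest.

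In the comparisons of tumor with no tumor, no member passed the test, while 0% of all genes passed without agonist and 0.199% with agonist. The median log2 fold change of the 8 genes was 0.51 for the agonist without tumor and 0.84 with tumor, beside -0.04 and -0.02 over all tested genes. Above 0 were 5 of 8 genes without tumor and 6 of 8 with tumor. The 0.51 lay between Lrp1, at 0.21 ± 0.45 (SE), and Stab1, at 0.82 ± 1.01 (SE). For the tumor the median was 0.25 without agonist and 0.11 with agonist, beside -0.01 over all genes in both. There 6 of 8 and 4 of 8 genes were above 0.

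Levels were compared between the genes per length, as TPM summed over protein-coding transcripts. In the group with neither treatment the order was Timd4, Axl, Pros1, Gas6, Lrp1, Mertk, Tyro3 and Stab1, from 0.971 TPM for Timd4 and 0.857 TPM for Axl to 0.0078 TPM for Stab1. Timd4 and Axl overlapped there. With the agonist alone Axl came first at 2.89 ± 0.440 TPM (SD, n = 3), above every Timd4 value, and Timd4 followed at 0.795 ± 0.274 TPM (SD, n = 3). The levels of Mertk, Tyro3, Gas6, Pros1 and Lrp1 in that group overlapped from each gene to the next.

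In both tumor groups Axl and Timd4 were first and second and overlapped, at means of 1.59 and 1.35 TPM without the agonist and 2.43 and 2.16 TPM with it. The Axl means include Axl-204, a protein-coding transcript of 563 bases. It gave 1.37 of 2.47 TPM, on 22.1 counts, in replicate 3 of the tumor group without agonist. Axl-201 alone had means of 1.02 and 2.15 TPM, below those of Timd4, so the first place of Axl rested on Axl-204 in both groups. Pros1 came next in both, at 0.662 and 0.233 TPM, and did not overlap Timd4. The ranges of all neighbours below Pros1 overlapped in both groups. By mean CPM, 58.6% of tested genes lay below Axl and 41.9% below Lrp1, and the 6 others ranked lower, down to Stab1 with 20.3% below it.

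Of 11 tested markers of dendritic cell maturation, 3 rose with the agonist without tumor (Ccr7, Cd80 and Ccl17), where 1.36% of all genes rose. The list median was 1.09 on the log2 scale, with 11 of 11 above 0. With tumor 0 of 11 passed with the agonist, where 0.685% of all genes did. The list median there was -0.06, with 4 of 11 above 0. Of 11 tested cDC1 markers none passed in any of the 6 comparisons, and the median for the agonist was -0.75 without tumor and -0.33 with tumor. Ccr7, the chemokine receptor of migrating mature dendritic cells, was at 839, 582 and 390 CPM with neither treatment and at 2053, 1368 and 3251 CPM with the agonist alone. It was at 1429, 573 and 1678 CPM with the tumor alone and at 1416, 1642 and 1479 CPM with both. In the tumor group without agonist, replicates 1 and 3 lay within the Ccr7 range of the agonist libraries, with Axl at 11.2 and 10.5 CPM. Replicate 2 of that group lay below this range, with Axl at 8.88 CPM. Cd80, another of these markers, was at 34.1, 26.4 and 26.4 CPM with neither treatment and at 123, 57.5 and 113 CPM with the agonist alone. It was at 43.8, 36.9 and 29.9 CPM with the tumor alone and at 75.2, 91.4 and 67.0 CPM with both. The agonist libraries were all above the others. Averaged over tumor states, Cd80 was the 1 marker of 11 that passed, at 1.42 ± 0.19 (SE), where 2.17% of all genes rose. Its adjusted p was 0.00127 in edgeR's test. The part of maturation in the Axl result was not tested.

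**Figure D4:**
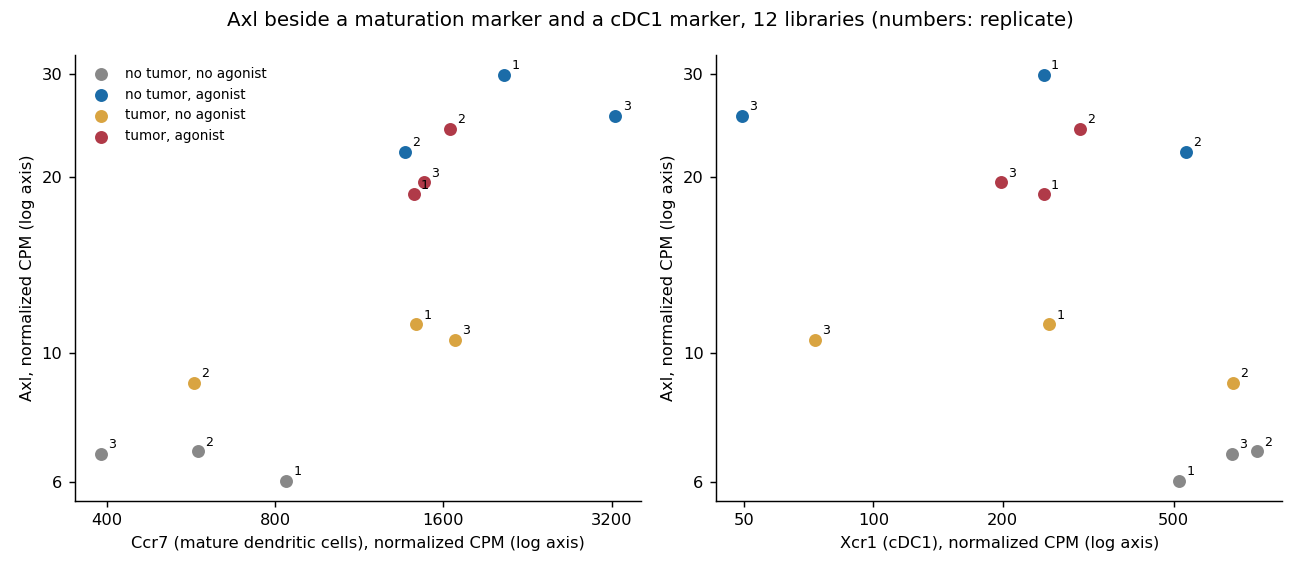
Normalized CPM of Axl (vertical axes, log) against Ccr7 and against Xcr1 (horizontal axes, log) in the 12 libraries, with the replicate number beside each point. The tumor libraries without agonist have 1429, 573 and 1678 CPM of Ccr7 and 11.2, 8.88 and 10.5 CPM of Axl. The agonist libraries lie between 1368 and 3251 CPM of Ccr7 and between 18.7 and 29.9 CPM of Axl.

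Markers of other cell types were summed per library to set beside these values. Of 13 macrophage markers, 8 or 9 reached a mean of 1 CPM in each group and Vsig4 was at 0 counts in all 12 libraries. Their sum was 112 to 122 CPM with neither treatment, 21.2 to 94.7 CPM with the agonist alone, 39.1 to 136 CPM with the tumor alone and 89.7 to 112 CPM with both. Cd68, which dendritic cells also express, had means of 96.0, 43.2, 67.6 and 36.5 CPM in these groups and so weighed heavily in the sum. Adgre1, which encodes F4/80, was between 1.47 and 7.37 CPM in all libraries.

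Of all genes, 1.44% passed for the agonist without tumor, 0.685% for the agonist with tumor and 0.199% for the tumor with agonist. Taken gene by gene, 12 macrophage markers were tested. For the agonist without tumor none passed, with a median log2 fold change of -0.10 and 6 of 12 above 0. For the agonist with tumor the median was 1.198, with 8 of 12 above 0, and Siglec1 rose, by 2.30 ± 0.47 (SE) with an adjusted p of 0.0440 in edgeR's test. For the tumor with agonist the median was 1.78, with 9 of 12 above 0, and Marco rose, by 4.02 ± 0.76 (SE) with an adjusted p of 0.0445 in edgeR's test, as did C1qb, given below. Marco, a scavenger receptor of macrophages, was at 0.658, 0.196 and 0.119 CPM with the agonist alone and at 4.37, 4.99 and 6.42 CPM with both. The group with both also held the highest Timd4 and Lrp1 libraries, and the part of macrophage RNA in the values of the 8 genes was not tested.

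Of 7 tested monocyte markers, Ly6c2 rose with the agonist in both tumor states and Chil3 with tumor. Of all genes, 1.44% passed for the agonist without tumor and 0.685% with tumor. Chil3 was at 0.165, 0.151 and 0.254 CPM with the tumor alone and at 0.649, 1.73 and 23.5 CPM with both. Replicate 3 of the group with both thus lay far above the rest. The markers went both ways: averaged over tumor states Ly6c2 rose, and Ccr2 changed by -2.23 ± 0.44 (SE) on the log2 scale. In that comparison 2.17% of all genes rose and 0.348% fell. The adjusted p of Ccr2 was 0.0142 in edgeR's test. Ly6c2 was at 12.01, 14.8 and 9.18 CPM with neither treatment, 53.4, 24.2 and 33.8 CPM with the agonist alone, 7.44, 10.6 and 8.65 CPM with the tumor alone and 57.7, 47.4 and 71.4 CPM with both. Its log2 fold changes with the agonist were 1.63 ± 0.29 (SE) and 2.72 ± 0.30 (SE), with adjusted p-values of 0.0160 and 0.00159 in edgeR's test, so it was higher in the same libraries as Axl. Ly6c2 is also known as a gene inducible by interferon. The list's median for the agonist was -0.47 without tumor and 1.04 with tumor, and its sum was 601 to 795, 150 to 437, 187 to 672 and 524 to 576 CPM, in the order neither treatment, agonist, tumor and both. Its part in the Axl and Mertk results was not tested.

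None of 8 T cell markers passed, but 8 of 8 had log2 fold changes above 0 for the tumor in both agonist states, with medians of 0.94 and 0.60. Their sum was 134 to 214, 159 to 192, 123 to 627 and 145 to 343 CPM, in the same order of groups. The sum of 5 Langerhans cell markers was 167 to 239, 42.5 to 187, 72.8 to 152 and 38.7 to 53.1 CPM. Gene by gene they went both ways. For the agonist without tumor Gjb2 rose, by 3.00 ± 0.53 (SE) on the log2 scale. Averaged over tumor states Gjb2 rose by 2.41 ± 0.38 (SE), and Cd207 changed by -2.58 ± 0.56 (SE). Their adjusted p-values in edgeR's test were 0.0151 for Gjb2 without tumor, and averaged 0.00352 for Gjb2 and 0.0252 for Cd207. Of all genes, 1.36% rose with the agonist without tumor, and averaged 2.17% rose and 0.348% fell. The part of these cells in the results was not tested.

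All 10 B cell markers reached 1 CPM in each group, and their sum was 272 to 352, 322 to 486, 200 to 391 and 1121 to 2932 CPM, in the same order of groups. The sum of 9 endothelial markers was 20.7 to 26.2, 32.4 to 48.8, 20.7 to 26.5 and 47.6 to 90.4 CPM, and that of 10 fibroblast or reticular markers 12.2 to 17.3, 18.4 to 25.2, 16.8 to 25.6 and 6.94 to 18.2 CPM. For the agonist with tumor 8 of 10 B cell markers rose, and the endothelial marker Kdr rose with the agonist in both tumor states. Of all genes, 0.685% passed for the agonist with tumor and 1.44% without tumor. The B cell sums of the group with tumor and agonist were above those of all other libraries, and its endothelial sums overlapped those of the agonist group without tumor. Their part in the values of Timd4, Lrp1, Stab1 and the complement genes below was not tested.

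Other receptors and bridging molecules of uptake mostly did not pass. Of 27 listed genes 24 were tested, and with the agonist without tumor 2 rose and none fell, where 1.36% of all genes rose and 0.0829% fell. Itgav, the integrin αV subunit that binds the bridging protein MFG-E8, went from 41.2, 41.7 and 43.6 CPM to 80.7, 69.8 and 112 CPM, a log2 fold change of 1.05 ± 0.19 (SE). Scarf1, a scavenger receptor that binds C1q on dying cells, went from 10.5, 8.02 and 7.54 CPM to 28.7, 20.02 and 48.3 CPM, a log2 fold change of 1.90 ± 0.44 (SE). Their adjusted p-values in edgeR's test were 0.0151 and 0.0488. With 1 of the 6 libraries left out, edgeR's adjusted p ranged from 0.00541 to 0.110 for Itgav, with 2 of 6 fits under the threshold, and from 0.0167 to 0.294 for Scarf1, with 1 of 6. In both genes the highest library was replicate 3, which is the lowest in Xcr1.

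The median of this list in that comparison was -0.24 on the log2 scale, with 10 of 24 genes above 0. With tumor none of the 24 passed with the agonist, and the lowest p-values were those of C1qb, C1qa and Itgb5, at log2 fold changes of 1.78, 2.19 and -1.18. Averaged over tumor states 1 gene of this list rose and 1 fell, where 2.17% of all genes rose and 0.348% fell. Itgav rose by 0.79 ± 0.13 (SE) on the log2 scale, with an adjusted p of 0.00518 in edgeR's test. Anxa1, which encodes the phospholipid-binding annexin A1, fell by 1.36 ± 0.32 (SE) on the log2 scale, with an adjusted p of 0.0379 in edgeR's test, and passed in 2 of 12 fits that left out 1 library, against 12 of 12 for Itgav.

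C1qb, a chain of complement C1q that opsonises dying cells, was the gene of this list that passed between tumor and no tumor among agonist libraries. It was at 1.85, 1.14 and 0.52 CPM with the agonist alone and at 8.05, 7.39 and 9.12 CPM with tumor and agonist. The log2 difference was 2.81 ± 0.52 (SE), with an adjusted p of 0.0476 in edgeR's test, and it did not pass in any of 6 fits that left out 1 library. C1qa was at 5.88, 4.46 and 12.1 CPM in the group with both, and at most 3.41 CPM in the other 9 libraries. The C1q genes are also on the macrophage list.

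Of 26 genes of engulfment signalling, phagosome maturation and handling of engulfed lipid, 25 were tested and none passed in a pairwise comparison. The lowest p-values for the agonist without tumor were those of Rxra, Abcg1 and Nr1h2, at log2 fold changes of -1.21, 1.08 and 0.46. Rxra, a nuclear receptor that pairs with LXR and PPAR, fell by 0.99 ± 0.24 (SE) on the log2 scale over both tumor states, with an adjusted p of 0.0425 in edgeR's test, and passed in 3 of 12 fits that left out 1 library. The median of the list was 0.14 for the agonist without tumor and 0.03 with tumor.

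Of 21 genes of TAM receptor signalling, shedding, ligand carboxylation and feedback, 19 were tested. For the agonist without tumor 2 rose, where 1.36% of all genes did. Pik3r1, the regulatory subunit of PI3 kinase, rose by 1.35 ± 0.22 (SE) and the adaptor gene Nck2 by 0.75 ± 0.16 (SE) on the log2 scale. Their adjusted p-values in edgeR's test were 0.0111 and 0.0328, and with 1 library left out they passed in 4 and 1 of 6 fits. Pik3r1 was at 147, 137 and 120 CPM without and at 319, 237 and 473 CPM with the agonist. Averaged over tumor states Pik3r1 rose by 0.92 ± 0.16 (SE) on the log2 scale, with an adjusted p of 0.00548 in edgeR's test, and passed in 12 of 12 fits that left out 1 library.

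With tumor none of the 19 passed with the agonist. The lowest p-values there were those of Socs3, a feedback inhibitor of cytokine signalling, Pik3r1 and the adaptor gene Grb2, at log2 fold changes of 1.18, 0.49 and 0.35. The median of the list was -0.16 for the agonist without tumor and 0.0035 with tumor.

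Of 13 genes for the LRP1 chaperone, adaptors and ligands, 12 were tested. For the agonist without tumor 1 rose, where 1.36% of all genes did. Mdk, the growth factor midkine, went from 4.86, 2.23 and 1.15 CPM to 15.7, 10.7 and 25.3 CPM, a log2 fold change of 2.63 ± 0.51 (SE). Its adjusted p in edgeR's test was 0.0233, and with 1 library left out it passed in 2 of 6 fits. Replicate 3 of the agonist group was the highest.

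With tumor none of the 12 passed with the agonist. Averaged over tumor states Mdk passed, also in 10 of 12 fits that left out 1 library. Apoe, an apolipoprotein ligand of LRP1, was at 27.0, 26.03 and 16.2 CPM with the agonist alone and at 54.2, 40.3 and 76.6 CPM with tumor and agonist. That log2 difference was 1.31 ± 0.27 (SE), with an adjusted p of 0.0741 in edgeR's test, and did not pass. The median of the list was 0.39 for the agonist without tumor and 0.28 with tumor.

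**Figure D5:**
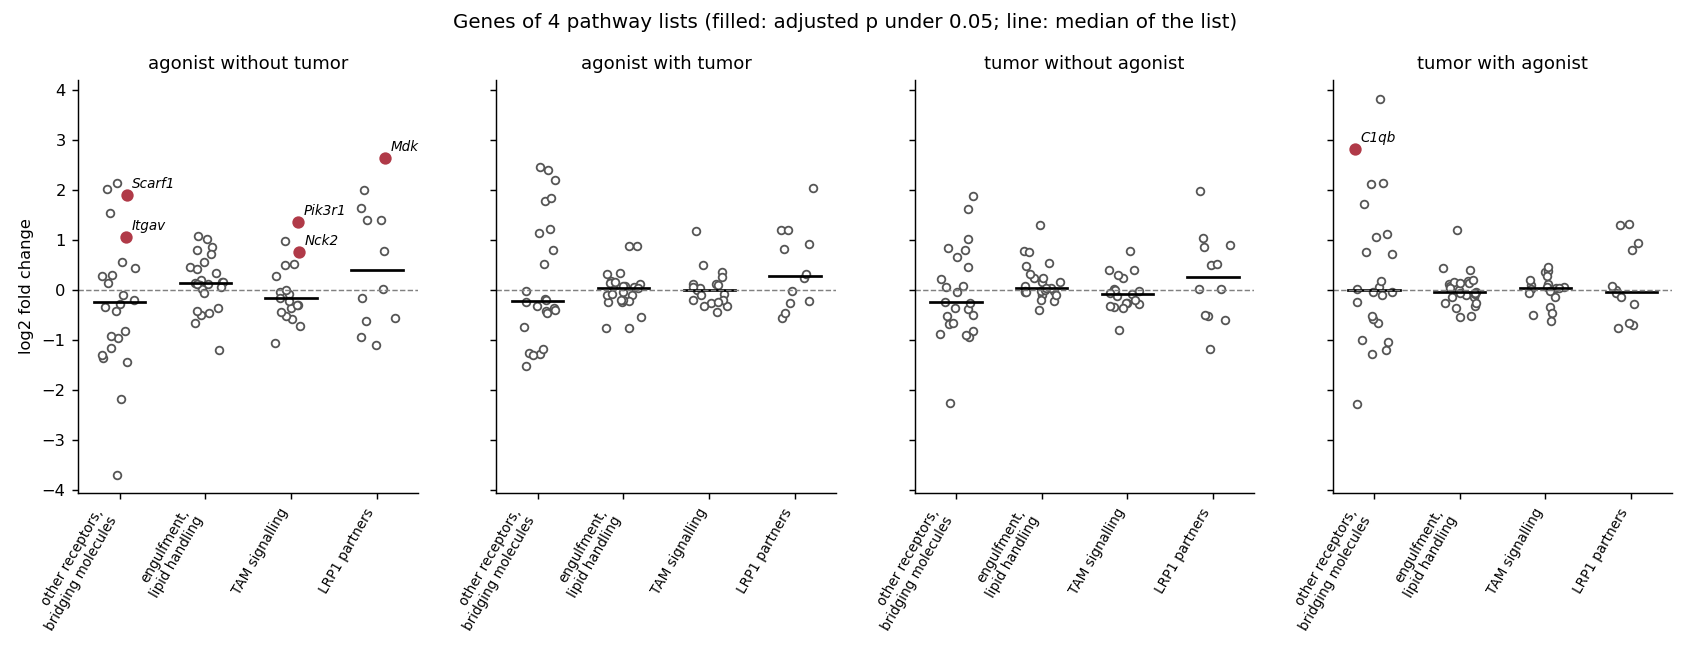
Log2 fold change (vertical axis) of each tested gene of 4 pathway lists in the 4 pairwise comparisons, with named filled circles for an adjusted p under 0.05 in edgeR's test and a line at each list's median. Of these genes 5 passed with the agonist without tumor, from Nck2 at 0.75 to Mdk at 2.63, and 1, C1qb, passed between tumor and no tumor among agonist libraries.

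Genes whose pattern was most like that of each member were named by Pearson's r of log2 CPM over the 12 libraries, among 10222 genes that averaged 5 CPM or more. All pairs share the libraries and their groups, so r follows the group differences too. For Axl these were Sema7a (r = 0.959), a membrane-bound semaphorin, Bcl2l14 (r = 0.955), of the BCL-2 family, and Etnk1 (r = 0.955), an ethanolamine kinase. Sema7a had group means of 78.4, 669, 176 and 450 CPM, in the order neither treatment, agonist, tumor and both.

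For Mertk the 3 genes were Phc2 (r = 0.908), Serpinb9b (r = 0.898) and Cdc42ep2 (r = 0.894), and for Tyro3 they were Tlr1 (r = 0.858), Dzip3 (r = 0.848) and Ly6a (r = 0.838). For Pros1 they were Synj2bp (r = 0.890), Gnl2 (r = 0.883) and Cox7a2l (r = 0.854). For Timd4 they were Dpysl2 (r = 0.864), Bccip (r = 0.828) and Reep4 (r = 0.828), and for Lrp1 Treml2 (r = 0.939), Ptp4a3 (r = 0.935) and Zcchc2 (r = 0.933). Gas6 and Stab1, with means under 1 CPM, were left out of this search.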

How the data were processed

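RNA-seq of 12 libraries in 4 groups of 3 was analysed. Total RNA, extracted with a Qiagen micro kit, went into directional NEBNext libraries, per the labels' protocols. The submitters' processing notes name Salmon and the mm10 build, with no version, and the deposited tables' name speaks of sailfish. The authors deposited expected counts per transcript (estimated, not normalized) and TPM per transcript. Of 136288 transcripts 136176 were assigned to 53458 genes with GENCODE M21 (GRCm38), the other 112 were left out, and summed expected counts were rounded to whole numbers. Short transcripts weigh more in summed TPM than in counts.

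Genes were kept by edgeR's filter (minimum count 10, minimum total 15), which left 18095. All 12 libraries entered 1 edgeR 4.0.16 fit (R 4.3.3) with TMM factors between 0.936 and 1.07, 4 group means and 8 residual degrees of freedom, tested by quasi-likelihood with Benjamini-Hochberg adjustment over all genes and a threshold of 0.05. The common biological coefficient of variation was 58.4%. The comparisons were the agonist and the tumor in each state of the other, their interaction, and the agonist averaged over tumor states, which share libraries. The fit was also run on simulated counts, with changes set only for well-counted genes, in the agonist group without tumor. That run did not cover genes with few counts or changes in the other groups.

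Alternatives used DESeq2 1.42.0 and limma 3.58.1 (voom, and log2 of TPM with a pseudocount of 1 or 0.1), and others given at the end. The 8 genes and the gene lists were chosen with earlier results of these data known. Named were all 8 genes, the genes of each pathway list that passed or else up to 3 with the lowest p, transcripts with at least 10% of a gene's TPM, and the 3 genes with the highest r for each member with a mean of at least 1 CPM. Stab1-201, Axl-204 and the marker genes named were added after their values were seen. Results of 2 genes of the pathway lists are not reported here, and list sizes, counts and medians are given without them.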

Additional observations from a re-analysis of the deposited data

How the results depend on the processing

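Of the 8 genes, 1 passed for the agonist without tumor, 1 for the agonist with tumor and 2 for the agonist averaged over tumor states. Without tumor the count was 1 in each fit that left out 1 library, 2 with DESeq2, which added Mertk, and 0 with limma on log2 TPM (pseudocount 1, 0.1, or 1 with no filter). With tumor it was 0 with edgeR's legacy = TRUE, no filter, limma-voom, the 3 TPM settings, only the 6 libraries of the 2 groups, protein-coding transcripts only, both libraries lowest in Xcr1 left out, and in each fit that left out 1 library. Averaged, it was 1 with legacy = TRUE, no filter, limma-voom, protein-coding transcripts only and both libraries lowest in Xcr1 left out, 0 with the 3 TPM settings, and 1 to 2 with 1 library left out. With the title prefix as a replicate block, the count was 0 with tumor and 1 averaged, where the main values were 1 and 2. The prefix is not stated to pair samples. Deviations from the group means correlated between 0.0036 and 0.228 for libraries of the same prefix, so all were above 0. For libraries of different prefixes and groups they correlated between -0.190 and 0.0877. No member passed in the other comparisons under any alternative.

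Over all genes the calls for the agonist without tumor were 261, and 48 to 913 under the block and DESeq2, 23 to 31 on TPM, and 22 to 946 with 1 library left out. With tumor they were 124, and 16 to 316, and 26 to 226 with 1 library left out. The other comparisons gave 36 (0 to 166) for the tumor with agonist, 456 (42 to 962) averaged, 0 (0 to 29) for the tumor without agonist and 0 (0 to 18) for the interaction.

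Signs turned only for values that had not passed. On log2(TPM + 1) and log2(TPM + 0.1) these were Axl, 0.0461 and 0.0759, and Mertk, 0.0296 and 0.0390, for the tumor with agonist; Tyro3, -0.20 and -0.60, Pros1, 0.12 and 0.0568, and Lrp1, -0.0218 and -0.17, for the agonist without tumor; Stab1, -0.18 and -0.32, for the agonist with tumor; and Lrp1, -0.0438 and -0.17, for the tumor without agonist. The values without filter were the same. With coding transcripts only, Tyro3 became 0.96 for the tumor without agonist, -0.37 with agonist and -1.32 for the interaction. Gas6, near 0 for the tumor without agonist, became 0.0534 with legacy = TRUE, 0.0181 with DESeq2 size factors, 0.0211 with no filter, 0.0714 with DESeq2 and 0.0034 with coding transcripts only. With limma-voom, Stab1 became -0.27 for the agonist without tumor, -0.0129 for the tumor without and 0.96 with agonist, and 0.97 for the interaction. Without both libraries lowest in Xcr1, Mertk became 0.40, Gas6 0.54 and Pros1 -0.14 for the tumor with agonist, Gas6 0.45 and Stab1 -0.21 for the tumor without agonist, and Gas6 0.0883 for the interaction.

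With 1 library left out, values crossed 0 for Mertk (-0.53 to 0.40), Gas6 (-1.62 to 0.54), Pros1 (-0.14 to 0.76) and Stab1 (-0.85 to 2.09) for the tumor with agonist. They did so for Gas6 (-1.19 to 0.45), Stab1 (-0.37 to 0.79) and Lrp1 (-0.35 to 0.31) for the tumor without agonist, and for Gas6 (-1.64 to 0.52) and Stab1 (-1.08 to 2.03) for the interaction. For the agonist they did so for Stab1 (-1.56 to 1.56 without tumor, -0.0172 to 0.82 with tumor, -0.55 to 1.02 averaged) and Timd4 (-0.12 to 0.31 averaged). The cause was not tested. The 7 members other than Axl had means of at most 4.20 CPM over the 12 libraries.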
